A study of Mus musculus with 4 samples.

Results

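The collagen gene family was followed in whole lungs of wild type mouse embryos and of embryos labelled as lacking Yap, a transcriptional coactivator of the Hippo pathway, in the lung epithelium. The 41 collagen genes on the list were found by symbol among the 52636 genes of the expression table, and 38 of them were measured well enough to be tested. Lungs were taken at embryonic day 14.5 from C57BL/6 mice. The 2 control libraries were from wild type embryos and the 2 Yap CKO libraries carried a conditional Yap knockout, which the series title places in the epithelium. The labels name neither the Cre driver nor the deleted exons, and they do not say whether the libraries of a group came from separate embryos or from pools. The p-values therefore measure the spread between these libraries, which may be technical. Since each library is RNA of the whole organ, fewer cells of a type and less RNA per cell cannot be told apart.

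Collagens are matrix proteins built as a triple helix of 3 chains, with a gene for each kind of chain. Fibrillar collagens bundle into the cables of connective tissue, and fibril-associated collagens sit on their surface. Type IV collagens form the mesh of the basement membrane under epithelium, endothelium and muscle. Type VI collagen makes beaded filaments around cells. In the lung most fibrillar collagen is made by mesenchyme, while the epithelium and endothelium help to lay down the basement membrane on which the airway tree branches.

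Depth was alike, from 17756301 to 21333878 reads counted to genes per library. Where a pair of values is given for a group, replicate 1 comes first. For Yap1, the targeted gene, the normalized read counts were 5686 and 3467 in the controls against 3209 and 4483 in Yap CKO. The groups overlapped, so Yap1 in whole lung does not check the labels, and each direction below is that of the libraries labelled Yap CKO. Control 1 differed from the rest in sex, with Xist, the RNA of the inactive X chromosome, at 42.6 against 42729 to 50045. Heart muscle RNA also varied, since 15 heart genes summed to 1871 and 57178 in the controls against 12998 and 2340 in Yap CKO. Markers of lung epithelium (8 genes, 16558 to 18478), endothelium (7 genes, 17092 to 18917) and lung fibroblasts (9 genes, 24140 to 28042) were present in all libraries.

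The type IV basement membrane genes Col4a5 and Col4a6 and the fibril-associated gene Col12a1, known from tissues under tension, fell in the libraries labelled Yap CKO, while Col11a2, a cartilage collagen, rose. Of the 38 collagen genes tested, 3 fell (Col4a5, Col4a6 and Col12a1), 1 rose (Col11a2) and 34 did not pass. The test was limma's moderated linear model on log2(normalized count + 1), with p-values adjusted over all 19472 genes tested and called under 0.05. Log2 changes are Yap CKO minus control on that scale. By the same rule 2.33% of all genes were called, 1.15% as lower and 1.19% as higher. With values rescaled to equal totals 62.0% of all calls were rises, against 50.9% as deposited, and the same 4 collagens were called. An unadjusted p under 0.05 was reached by 21 of the 38 collagens, or 55.3%, against 18.9% of all genes. Of these 15 were lower and 6 higher, where 9.52% of all genes were lower and 9.34% higher at that level. In 18 collagens (47.4%) both Yap CKO libraries lay below both controls and in 7 (18.4%) above both, with 13 overlapping. Over all genes tested these shares were 25.6% below and 25.2% above. The median log2 change of the 38 was -0.13, beside -0.005 for all genes tested.

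Without Yap CKO 1 or without Yap CKO 2 the 4 calls ended, as did nearly all calls over the whole table. Without control 1 or without control 2 more collagens passed, as did more genes over the whole table. In each case 1 library was assumed to vary like the other group. The groups were apart for all 4 genes, so leaving out 1 library could not reverse their direction. Over these fits the log2 changes ran from -0.675 to -0.58 for Col4a5 and from -0.80 to -0.66 for Col4a6. Those of Col12a1 ran from -1.08 to -0.67 and those of Col11a2 from 0.57 to 0.68. DESeq2 on the recovered reads called 17 collagens, including the same 4, where 5.54% of the genes it gave an adjusted p were called. By edgeR 3 collagens passed (Col4a5, Col4a6 and Col12a1), where 2.07% of all genes were called.

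**Figure D1:**
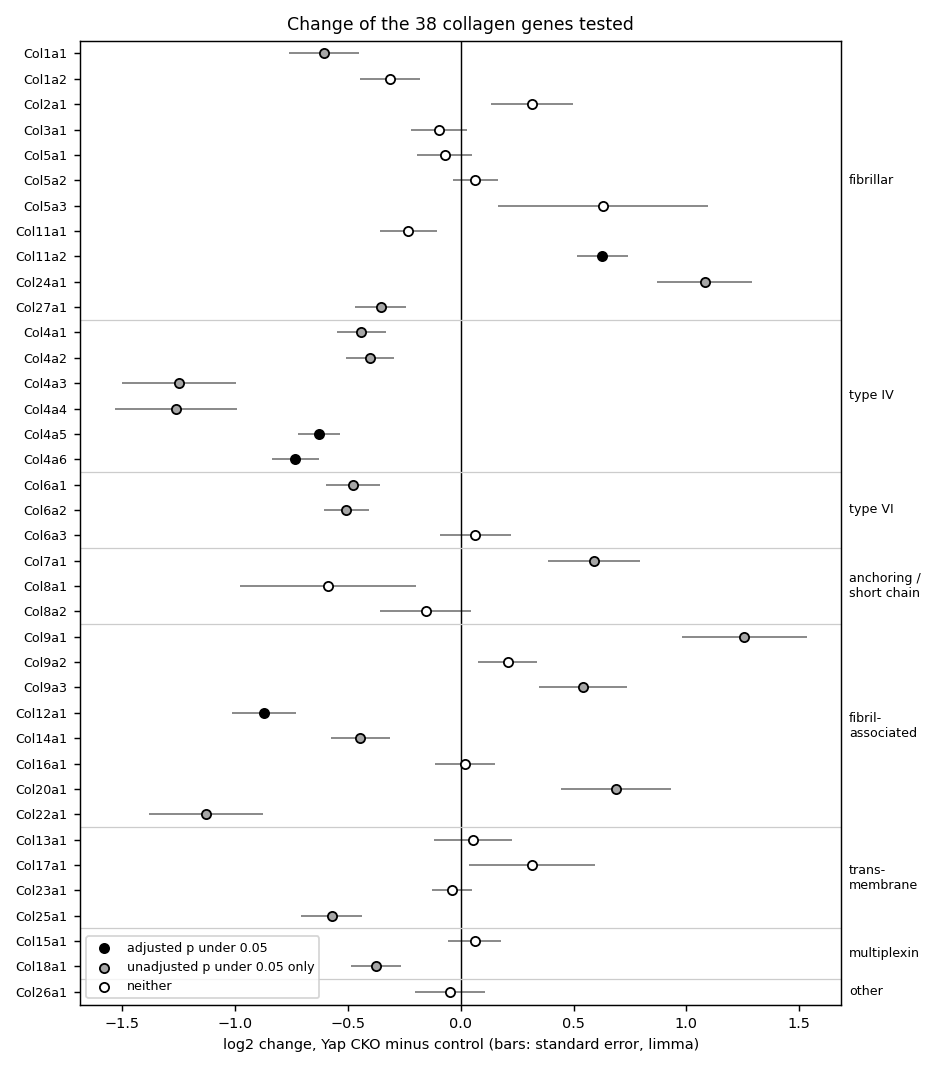
Log2 change (horizontal axis, Yap CKO minus control, bars showing the standard error) of the 38 collagen genes tested, ordered by structural class, n = 2 per group. Black points are the 4 calls, gray points the other 17 genes with an unadjusted p under 0.05, and all 6 type IV genes lie left of 0, from -0.40 to -1.26.

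The family made up about 1% of the normalized reads, 1.09% and 1.14% in the controls against 0.991% and 0.899% in Yap CKO. Levels were compared between genes as normalized reads per kilobase, using the longest protein-coding transcript. On that scale Col3a1 led with a mean of 7216 over the 4 libraries, followed by Col1a1 at 6384 and Col1a2 at 5526. Col3a1 encodes the type III collagen of soft, distensible tissue, and Col1a1 and Col1a2 the chains of type I collagen. The range of Col1a1 over the libraries overlapped that of Col3a1 and that of Col1a2, so neighbours in this order did not differ beyond their spread, while Col3a1 lay above Col1a2 in range (6651 to 7748 against 4632 to 6626 per kilobase). Next came Col4a1 (2367 per kilobase) and Col6a2 (2346 per kilobase), whose ranges overlapped as well. At the bottom Col19a1, Col28a1 and Col10a1 stayed below the filter of a mean of 10 normalized counts and were not tested. Col10a1, the collagen of hypertrophic cartilage, had 1 and 1 reads in the controls against 0 and 1 in Yap CKO. For Col28a1 the reads were 0 and 3 against 0 and 1, and for Col19a1 they were 6 and 2 against 2 and 3. With 0 reads up to 3 remain possible from counting error alone, which is 2.80 to 3.51 normalized counts, and no difference was detectable at this depth for Col10a1 and Col28a1.

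**Figure D2:**
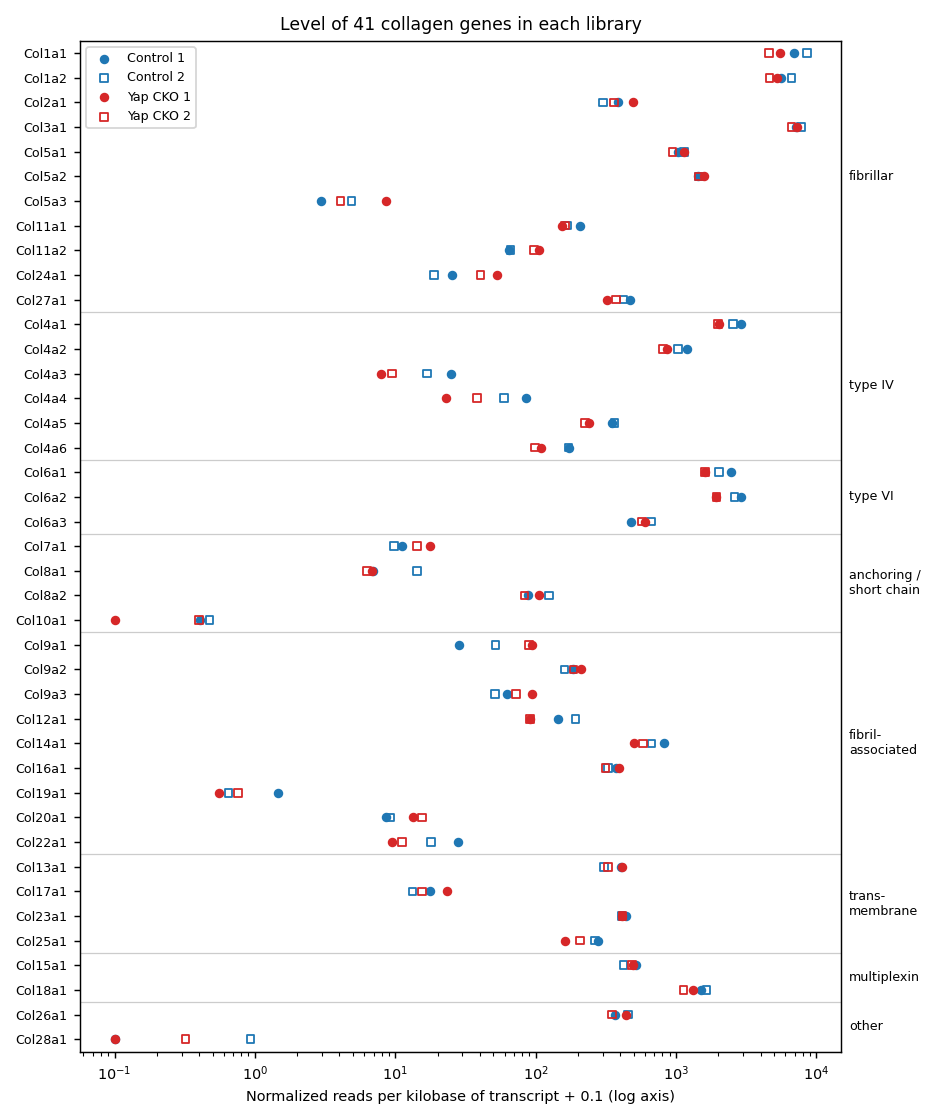
Normalized reads per kilobase of transcript plus 0.1 (horizontal log axis) of all 41 collagen genes by structural class, 1 point per library. Fibrillar genes range from Col3a1 at a mean of 7216 per kilobase to Col5a3 at 5.02, and Col10a1, Col19a1 and Col28a1 lie near 0.

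All 6 type IV collagen genes were lower in both Yap CKO libraries than in both controls, and 2 of them fell by the test. Over all genes tested these shares were 25.6% and 1.15%. Type IV chains assemble into α1α1α2, the mesh of nearly every basement membrane, α3α4α5, known from kidney and alveolar basement membranes, and α5α5α6, known from smooth muscle and skin. Their genes lie head to head in pairs, each pair transcribed outward from a shared stretch of DNA. The starts were read from GENCODE M21 and the DNA from the RefSeq promoter table (GRCm38.p6, the assembly of mm10), which holds a window of 250 bases before to 50 after the start for 32 of the 41 collagen genes. Stretches at or between the paired starts are shown because both genes of each pair were lower. All are written 5′ to 3′. Capitals mark, on either strand, a GC box with the letters GGGCGG, the box known by its letters CCAAT, or the core of the motif bound by TEAD, the DNA-binding partner of Yap, with the letters GGAATG. The starts of Col4a1 (mm10 chromosome 8, 11198423 to 11312826, minus strand) and Col4a2 (11312805 to 11449287, plus strand) overlap by 22 bases, shown on the plus strand. The first exons of Col4a3 (chromosome 1, 82586921 to 82722059, plus strand) and Col4a4 (82448423 to 82586849, minus strand) are separated by 71 bases, also shown on the plus strand. Between Col4a5 (chromosome X, 141475385 to 141689234, plus strand) and Col4a6 (141165403 to 141474076, minus strand) lie 1308 bases. For this pair the stretch before each gene is shown on that gene's own strand, with the first transcribed base of Col4a6 kept to complete the TEAD core.
Col4a1 and Col4a2, chr8:11312805-11312826: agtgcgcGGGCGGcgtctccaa
Col4a3 and Col4a4, chr1:82586850-82586920: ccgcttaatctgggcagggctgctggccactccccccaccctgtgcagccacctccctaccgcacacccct
Col4a6, chrX:141474076-141474326: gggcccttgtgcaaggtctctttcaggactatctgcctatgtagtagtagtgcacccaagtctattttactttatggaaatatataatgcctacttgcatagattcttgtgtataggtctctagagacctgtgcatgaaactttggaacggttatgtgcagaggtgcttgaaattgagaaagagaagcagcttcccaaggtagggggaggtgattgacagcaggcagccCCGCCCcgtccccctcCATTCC
Col4a5, chrX:141475169-141475384: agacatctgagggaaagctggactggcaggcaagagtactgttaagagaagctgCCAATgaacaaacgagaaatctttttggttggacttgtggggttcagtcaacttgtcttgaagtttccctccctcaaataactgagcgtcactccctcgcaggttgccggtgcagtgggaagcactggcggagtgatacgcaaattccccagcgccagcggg

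Of the stretches shown only that of Col4a6 holds the TEAD core, at its end. Searched on both strands of the full windows of 300 bases, the TEAD core was in 14.7% of all 32851 windows and in 5 of the 35 collagen windows (14.3%), those of Col3a1, Col4a6, Col6a2, Col18a1 and Col20a1. The CCAAT box was in 37.4% of all windows and 34.3% of collagen windows, and the GC box in 35.7% and 57.1%. The stretches shown cover only part of the windows. Among type IV genes the CCAAT box was in the windows of Col4a1, Col4a2 and Col4a5. The GC box was in those and in that of Col4a6. Such matches are a description of the letters and do not show a bound site.

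The pair on the X chromosome carried the calls. Col4a6 (ENSMUSG00000031273) stood at 1150 and 1137 normalized counts in the controls against 722 and 654 in Yap CKO. The controls nearly coincided and both Yap CKO libraries lay well below them. Col4a6 fell by 0.73 on the log2 scale with a standard error of 0.10 (limma adjusted p = 0.0249). Col4a5 (ENSMUSG00000031274) stood at 2286 and 2383 in the controls against 1559 and 1462 in Yap CKO. Again the groups were apart, and Col4a5 fell by 0.63 ± 0.09 SE (adjusted p = 0.0273). Both genes are X-linked and control 1 was of the other sex, and the part of sex in these values was not tested. Without control 1 the log2 changes were -0.72 and -0.66 for Col4a6 and Col4a5. That leaves control 2 as the only control, so the spread between controls is not measured there. Both calls ended without Yap CKO 1 (adjusted p = 0.228 and 0.284) and without Yap CKO 2 (0.249 and 0.275).

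The α3 and α4 genes had the largest differences of the class and a wider spread. Col4a4 stood at 864 and 599.9 normalized counts in the controls against 233 and 385 in Yap CKO. Its log2 difference of -1.26 ± 0.27 SE did not pass (limma adjusted p = 0.0763). Col4a3 stood at 214 and 143 in the controls against 66.3 and 80.2 in Yap CKO, a log2 difference of -1.25 ± 0.25 (adjusted p = 0.066). For both genes control 1 was the highest library and the groups were apart. Of the exon bases of Col4a3, 5.65% overlap an antisense gene, C430014B12Rik, which held a mean of 2.43 normalized counts against 126 for Col4a3.

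The abundant pair differed least. Col4a1 stood at 19225 and 16874 normalized counts in the controls against 13397 and 13131 in Yap CKO, a log2 difference of -0.44 ± 0.11 SE (limma adjusted p = 0.102). Col4a2 stood at 7689 and 6650 in the controls against 5601 and 5219 in Yap CKO, a difference of -0.40 ± 0.11 (adjusted p = 0.119). Although neither passed, the Yap CKO libraries agreed closely for both genes and lay below both controls. By DESeq2 all 6 type IV genes passed, with an adjusted p of 0.000968 for Col4a1 and 0.0126 for Col4a2. DESeq2 called 5.54% of all genes it gave an adjusted p. Summed over the 6 genes, type IV collagens held 31429 and 27787 normalized counts in the controls against 21578 and 20931 in Yap CKO.

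**Figure D3:**
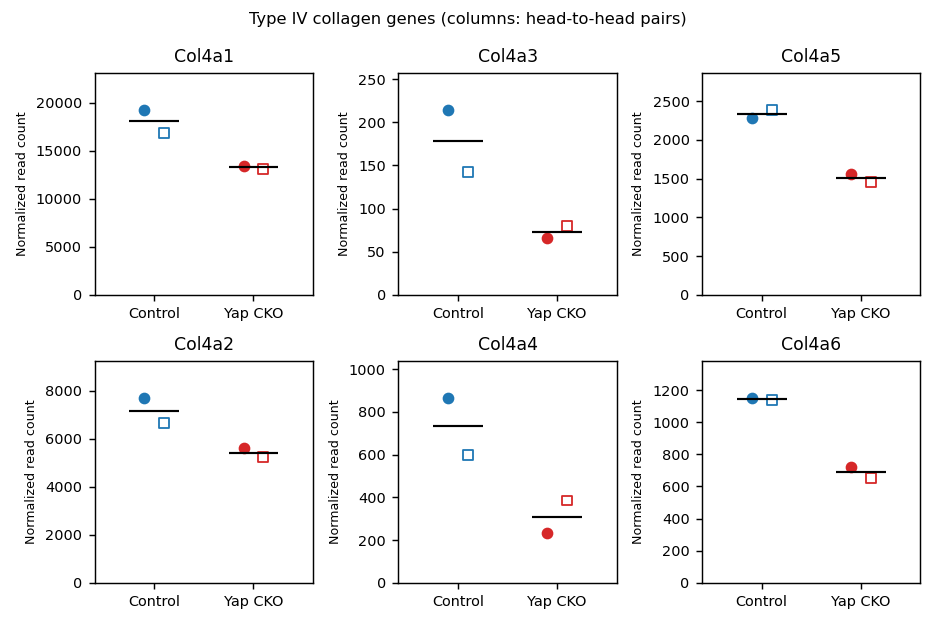
Normalized read count (vertical axis from 0) of the 6 type IV collagen genes, 1 point per library (circle for replicate 1, square for replicate 2) with the group mean as a line, n = 2 per group. Each column of panels is 1 head-to-head pair, and in every panel both Yap CKO points lie below both control points, as for Col4a6 at 722 and 654 against 1150 and 1137.

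Markers of smooth muscle, whose cells also make type IV collagen, were lower too. Of 14 smooth muscle marker genes 5 (35.7%) fell and 9 did not pass, where 1.15% of all genes tested fell. All 14 markers had a log2 change below 0, with a median of -1.35. Their summed level was 39403 and 42003 normalized counts in the controls against 21147 and 25995 in Yap CKO, with no marker at 0 in any library. The part of smooth muscle in the lower collagen values was not tested. The 8 lung epithelial markers summed to 18478 and 17304 in the controls against 16558 and 17582 in Yap CKO, and the 7 endothelial markers to 17092 and 18917 against 18181 and 17606. Of the 8 epithelial markers 4 (50%) were lower in both Yap CKO libraries, all 4 at an unadjusted limma p under 0.05, and 1 rose by the test. Over all genes tested 25.6% were lower in both, 9.52% were lower at such a p and 1.19% rose. The median log2 difference of the epithelial markers was -0.25. Their part in the type IV values was not tested.

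Fibrillar collagens lay on both sides of 0, and 1 of the 11 genes, Col11a2, was called. Col11a2 encodes a chain of type XI collagen, which nucleates thin fibrils in cartilage. It stood at 392 and 399.9 normalized counts in the controls against 636 and 590.04 in Yap CKO. Both Yap CKO values were above both controls, which nearly coincided. Col11a2 (ENSMUSG00000024330, mm10 chromosome 17, 34039437 to 34066685) rose by 0.63 ± 0.11 SE on the log2 scale (limma adjusted p = 0.0491). This call lies at the threshold, and it ended under TMM scaling (0.0532), with edgeR (0.0644) and in a fit blocked on the replicate number (0.0793). Its partner chain gene Col11a1 was lower, at 1584 and 1277 in the controls against 1186 and 1235 in Yap CKO (log2 difference -0.23, adjusted p = 0.378).

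Col24a1, a minor fibrillar collagen known from developing bone, had the largest difference of the class. It stood at 180 and 134 normalized counts in the controls against 378 and 289 in Yap CKO. The groups were apart, with a log2 difference of 1.08 ± 0.21 SE that did not pass (limma adjusted p = 0.0597, and 0.038 in the blocked fit).

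Of the most abundant collagens, both type I genes were lower in each Yap CKO library than in either control, and the type III gene overlapped between groups. Col1a1 stood at 40799 and 50689 normalized counts in the controls against 32560 and 27384 in Yap CKO. Both Yap CKO libraries were below both controls, with a log2 difference of -0.61 ± 0.16 SE that did not pass (limma adjusted p = 0.111). Col1a2, which encodes the other type I chain, was at 30133 and 35436 in the controls against 27861 and 24773 in Yap CKO (-0.31 ± 0.13, adjusted p = 0.269). Markers of lung fibroblasts, which make much of this collagen, summed to 25962 and 24140 in the controls against 28042 and 27445 in Yap CKO. Of these 9 genes 5 (55.6%) were higher and 4 (44.4%) lower in both Yap CKO libraries, beside 25.2% and 25.6% of all genes. Their log2 differences ran from -0.81 to 1.07. An unadjusted limma p under 0.05 was reached by 7, of which 4 were higher and 3 lower, beside 18.9% of all genes. By limma 1 rose, and DESeq2 called 5. Col3a1 stood at 39875 and 43112 in the controls against 40607 and 37007 in Yap CKO. For Col3a1 the groups overlapped and the log2 difference was -0.10 ± 0.12 (adjusted p = 0.725). Col27a1, a fibrillar collagen of cartilage and developing epithelia, was at 3548 and 3212 in the controls against 2447 and 2843 in Yap CKO (-0.36, adjusted p = 0.161). The type V genes Col5a1 and Col5a2, whose products set the width of type I fibrils, overlapped between groups, with log2 differences of -0.07 and 0.06. Col5a3 (17.4 to 51.9 normalized counts over the 4 libraries) and the cartilage gene Col2a1 (1537 to 2539) also overlapped.

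Within type VI collagen, the genes of the α1 and α2 chains were lower and the gene of the α3 chain was not. Col6a2 stood at 13507 and 12142 normalized counts in the controls against 8965 and 9058 in Yap CKO, a log2 difference of -0.51 ± 0.10 SE (limma adjusted p = 0.0611). Col6a1, its neighbour on chromosome 10, stood at 10145 and 8296 in the controls against 6555 and 6626 in Yap CKO, a difference of -0.48 ± 0.12 (adjusted p = 0.103). In both genes the Yap CKO libraries agreed closely and lay below both controls, but neither passed by limma or edgeR, whereas both did by DESeq2. Col6a3, on chromosome 1, stood at 4816 and 6674 in the controls against 6078 and 5783 in Yap CKO, and the groups overlapped (0.06 ± 0.16, adjusted p = 0.861).

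Fibril-associated collagens split into genes that were lower and genes that were higher. Col12a1, whose product binds type I fibrils in tissues under tension such as tendon and muscle sheaths, was the 1 call among the 8 genes tested. It stood at 1666 and 2208 normalized counts in the controls against 1042 and 1051 in Yap CKO. The groups were apart, with nearly equal values in Yap CKO. Col12a1 (ENSMUSG00000032332, mm10 chromosome 9, 79598991 to 79718831) fell by 0.87 ± 0.14 SE on the log2 scale (limma adjusted p = 0.0371), a call that ended without Yap CKO 1 (0.363) or Yap CKO 2 (0.295). Col22a1, known from the junction of muscle and tendon, stood at 246 and 158 in the controls against 82.7 and 96.9 in Yap CKO (-1.13 ± 0.25, adjusted p = 0.0829). Col14a1, a fibril-associated collagen of connective tissue, stood at 5270 and 4307 in the controls against 3241 and 3773 in Yap CKO (-0.45 ± 0.13, adjusted p = 0.146). The 6 skeletal muscle markers summed to 1130 and 2266 in the controls against 852 and 611 in Yap CKO, with Myod1 at 0 in control 1. The 4 of them that were tested had 2 positive and 2 negative log2 differences (-1.49 to 1.46), with 0 called by limma or edgeR, 1 by DESeq2 and 1 at an unadjusted limma p under 0.05. The part of muscle in the collagen values was not tested.

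Type IX collagen, the fibril-associated collagen of cartilage, lay on the other side. Col9a1 stood at 109 and 198 normalized counts in the controls against 361 and 343 in Yap CKO. Both Yap CKO values were above both controls, of which control 1 was the lowest. Its log2 difference of 1.26 ± 0.28 SE did not pass (limma adjusted p = 0.0799). Col9a3 was at 190 and 156 in the controls against 285 and 221 in Yap CKO (0.54, adjusted p = 0.206), and Col9a2 ranged from 469 to 539 in the controls and from 544 to 619 in Yap CKO (0.21, adjusted p = 0.453). Col9a3 shares 6.07% of its exon bases with the antisense gene Tcfl5. Col20a1, a further member of the class, was at 42.6 and 45.6 in the controls against 66.3 and 77.4 in Yap CKO (0.69, adjusted p = 0.204). Col16a1 overlapped between groups, at 1640 to 2057.

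The summed level of cartilage markers overlapped between groups. The 11 genes summed to 1534 and 2543 normalized counts in the controls against 2133 and 2232 in Yap CKO. Of the 7 tested, 3 (42.9%) were lower in both Yap CKO libraries than in both controls and 0 were higher. Over all genes tested these shares were 25.6% and 25.2%. The log2 difference was above 0 in 4 of the 7 and below 0 in 3, and none was called by limma or edgeR. Cytl1, named after its values were seen, had the 1 unadjusted limma p under 0.05 (log2 difference -1.75) and was the 1 DESeq2 call. The defining markers Matn1 and Ucma had 0 reads in control 1 and both Yap CKO libraries and 1 read each in control 2. Snorc also had 0 reads in control 1. Acan, the main proteoglycan of cartilage, was at 5.81 and 53.8 in the controls against 84.6 and 46.6 in Yap CKO. The part of cartilage cells in the values of Col9a1 and Col11a2 was not tested.

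In the remaining classes 3 anchoring or short-chain, 4 transmembrane, 2 multiplexin and 1 other gene were tested. These held no call by limma or edgeR. An unadjusted limma p under 0.05 was reached by 3 (Col7a1, Col25a1 and Col18a1), and DESeq2 called 2 (Col25a1 and Col18a1). Over all genes tested 18.9% had such a p, and DESeq2 called 5.54% of the genes it gave an adjusted p. Col7a1, the anchoring fibril collagen that ties epithelial basement membranes to the stroma, stood at 103 and 90.04 normalized counts in the controls against 162 and 130 in Yap CKO (log2 difference 0.59 ± 0.20 SE, limma adjusted p = 0.196). The short-chain network gene Col8a2 overlapped between groups (361 to 538), and Col8a1 was highest in control 2, at 72.5 against 31.7 to 34.9 elsewhere. Of the transmembrane collagens Col25a1, which motor axons need to reach muscle, stood at 1864 and 1777 in the controls against 1076 and 1392 in Yap CKO (-0.57 ± 0.14, adjusted p = 0.0954). Col23a1, the most abundant of that class per kilobase, was at 2482 and 2315 in the controls against 2314 and 2355 in Yap CKO, with a difference of -0.04. Col13a1 (965 to 1296) and Col17a1, a hemidesmosome component (73.7 to 131), overlapped as well. Col18a1, the basement membrane multiplexin that carries endostatin, stood at 8485 and 9223 in the controls against 7349 and 6324 in Yap CKO (-0.38 ± 0.11, adjusted p = 0.147). Its relative Col15a1 overlapped, at 2181 to 2689. Col26a1, which belongs to no larger class, was at 1016 and 1258 in the controls against 1229 and 972 in Yap CKO.

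Ratios within a library show which genes differed in step, since the scaling of the library cancels. Per kilobase, Col4a1 to Col4a2 was 2.44 and 2.47 in the controls against 2.33 and 2.45 in Yap CKO, so these ratios spanned a narrow range although both genes were lower. Col4a5 to Col4a6 was 2.02 and 2.13 in the controls against 2.197 and 2.272 in Yap CKO, with both Yap CKO libraries above both controls. For Col4a3 to Col4a4 the groups overlapped, at 0.293 and 0.281 in the controls against 0.337 and 0.246 in Yap CKO. Type I collagen is mostly assembled from a pair of α1 chains with 1 α2 chain, and Col1a1 to Col1a2 was 1.22 and 1.29 in the controls against 1.05 and 0.997 in Yap CKO. Col1a1 to Col3a1 was 0.96 and 1.10 in the controls against 0.752 and 0.694 in Yap CKO. In both of these ratios the Yap CKO libraries lay below the controls, as they did for Col6a1 to Col6a3 and Col5a1 to Col5a2. Col6a1 to Col6a2 stayed between 0.775 and 0.852 in all 4 libraries. Col6a1 to Col6a3 was 5.19 and 3.06 in the controls against 2.66 and 2.82 in Yap CKO, with control 1 far above the rest. Col9a1 to Col9a2 was 0.154 and 0.321 in the controls against 0.444 and 0.481 in Yap CKO, with both Yap CKO libraries higher. Col9a1 to Col9a3 overlapped, at 0.454 and 1.0095 in the controls against 1.0065 and 1.2336 in Yap CKO. Col5a1 to Col5a2 was 0.725 and 0.777 in the controls against 0.717 and 0.652 in Yap CKO. With 2 libraries against 2 an exact two-sided permutation test cannot go below p = 0.333, so the ratios are given as a description.

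**Figure D4:**
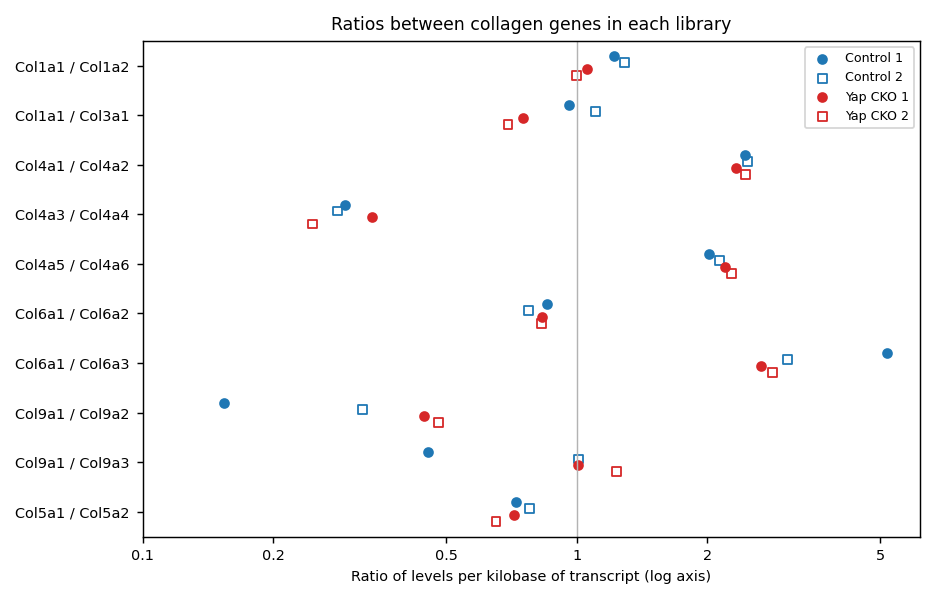
Ratio of levels per kilobase between collagen genes (horizontal log axis) in each library, circles for replicate 1 and squares for replicate 2. Col4a1 to Col4a2 stays between 2.33 and 2.47, while Col1a1 to Col1a2 is 1.22 and 1.29 in controls against 1.05 and 0.997 in Yap CKO.

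Genes that make, bind and cleave collagen were mostly not called. Of 60 such genes 56 were tested, of which 1 rose, 2 fell and 53 did not pass, with a median log2 change of -0.09. The called share, 5.36%, compares with 2.33% over all genes. Fmod encodes fibromodulin, a small leucine-rich proteoglycan that binds type I fibrils and limits their growth. It stood at 8556 and 8523 normalized counts in the controls against 3649 and 3866 in Yap CKO. These groups were far apart with little spread, and Fmod (mm10 chromosome 1, 134037254 to 134048277) fell by 1.18 ± 0.09 SE on the log2 scale (limma adjusted p = 0.00565). Pcolce, which speeds the removal of the carboxyl propeptide from procollagen, stood at 2159 and 2101 in the controls against 1208 and 1156 in Yap CKO. Pcolce (chromosome 5, 137605103 to 137613784) fell by 0.85 ± 0.09 (adjusted p = 0.0123). Itga2, the α2 integrin subunit of the collagen receptor α2β1, stood at 1108 and 1144 in the controls against 1743 and 1733 in Yap CKO. Itga2 (chromosome 13, 114833081 to 114932100) rose by 0.63 ± 0.09 (adjusted p = 0.026). None of these 3 calls passed without Yap CKO 1 (adjusted p = 0.135, 0.214 and 0.333 for Fmod, Pcolce and Itga2) or without Yap CKO 2 (0.0785, 0.138 and 0.251).

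Over all genes tested, limma called 2.33% and edgeR 2.07%, and 18.9% had an unadjusted limma p under 0.05. DESeq2 called 5.54% of the genes it gave an adjusted p. By role, limma and edgeR each called 0 of the 20 intracellular modifiers and chaperones, DESeq2 called 2, and 5 (25%) had an unadjusted limma p under 0.05. The smallest p there was that of P4ha3, a prolyl hydroxylase subunit, at 459 and 407 normalized counts in the controls against 271 and 290 in Yap CKO (adjusted p = 0.0763). Of the 12 tested genes for propeptide removal and cross-linking limma called Pcolce alone, with 5 (41.7%) at an unadjusted p under 0.05 and 3 called by DESeq2. Of the 6 tested fibril-binding proteins it called Fmod alone, with 3 (50%) at that level and 2 by DESeq2. Among 10 collagen receptors Itga2 was the 1 limma call, with 3 (30%) at that level and 3 by DESeq2. None of the 8 tested collagen-cleaving proteases and inhibitors was called by limma, edgeR or DESeq2 (0 at an unadjusted limma p under 0.05), and Mmp9, a gelatinase, had the smallest p, at 29.1 and 14.0 in the controls against 12.5 and 6.52 in Yap CKO (adjusted p = 0.338).

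**Figure D5:**
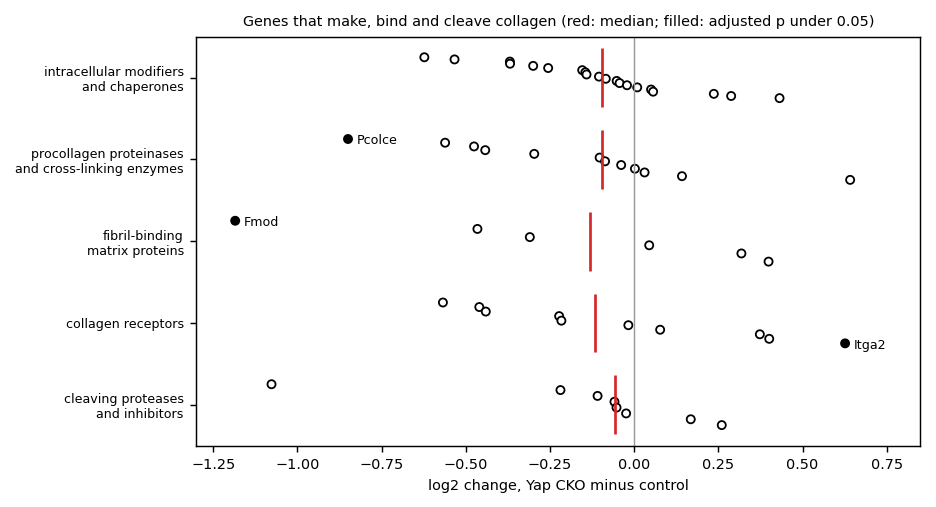
Log2 change (horizontal axis, Yap CKO minus control) of the 56 tested genes that make, bind or cleave collagen, by role, with filled points for the 3 calls and a red bar at each median, n = 2 per group. The calls are Fmod at -1.18, Pcolce at -0.85 and Itga2 at 0.63, while Mmp9 at -1.08 lies further out than Pcolce and Adamts14 at 0.64 further than Itga2 without being called, and the medians lie between -0.13 and -0.06.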

How the data were processed

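RNA of whole lungs was sequenced in 4 libraries, 2 control and 2 Yap CKO, grouped by their titles. The authors deposited normalized read counts per Ensembl gene, a non-negative signal scaled by 1 factor per library. Tools listed in the submitters' processing notes are DESeq 1.16.0 and edgeR 3.18.1, Bowtie2 2.2.9 and featureCounts 1.5.0-p1, with build mm10. The annotation and strand setting are not given in the sources used here. Every value (100% within 0.001 reads) was a whole multiple of 1 number per library, so reads were recovered. Symbols, positions and lengths came from GENCODE M21, which matched 52403 of 52636 identifiers. Genes with a mean of at least 10 were tested with limma 3.58.1 (R 4.3.3, variance prior with intensity trend, 2 residual and 4.54 prior degrees of freedom, Benjamini-Hochberg adjustment), checked on simulated data. edgeR 4.0.16 (404 genes called) and DESeq2 1.42.0 (1037) on the recovered reads, other scalings, filters and pseudocounts, a replicate block and leaving out each library were alternatives. Library values are given for collagens with an unadjusted p under 0.05 and the most abundant gene per kilobase of each class, and for called partner genes and the smallest p of each partner list. Other values were added after they were seen. The members and lists were chosen with earlier results of these data known.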

Additional observations from a re-analysis of the deposited data

How the results depend on the processing

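All 38 tested collagens kept their direction under both other pseudocounts, TMM scaling and both count tests, and 36 under equal totals. TMM scaling moved the median log2 change of all genes only from -0.0050 to -0.0063. A block on the replicate number cannot change a log2 change here, because each block holds 1 library of each group. The called genes were Col4a5, Col4a6, Col12a1 and Col11a2. The first 3 passed with both pseudocounts, the filter at 50, equal totals, TMM scaling, the block, edgeR and DESeq2. Without the filter on low values 56 genes were called, 0 collagens higher and 0 lower, with 0 partner genes higher and 1 lower, and the collagen median became -0.23. Without the intensity trend 6 genes were called, with 0 collagens and 0 partner genes in either direction. With DESeq2 1037 genes were called, 3 collagens higher and 14 lower, and 9 partner genes lower. TMM scaling and edgeR each left 0 collagens higher. When 1 library was left out, calls ranged from 2 to 2459 genes, 0 to 4 collagens higher, 0 to 15 lower, 0 to 4 partner genes higher and 0 to 11 lower, and the collagen median from -0.212 to -0.0404.

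The replicate number as a block called 342 genes, with Col24a1 (1.08, adjusted p = 0.038) in place of Col11a2 (adjusted p = 0.0793), and changed no other collagen call. The numbers are not stated to mark a shared litter or day, and deviations of same-numbered libraries correlated at -0.36 over genes. Crossing the numbers, an alternative chosen after seeing the data, called 972 genes, 3 collagens higher and 8 lower, and 6 partner genes lower. Differences near 0 changed sign. Col23a1 stood at 0.0241 and Col26a1 at 0.0135 with equal totals. Among others, leaving out 1 library moved Col8a2 from -0.41 to 0.096, Col23a1 from -0.0881 to 0.012 and Col26a1 from -0.22 to 0.12. The causes of these changes were not tested. Depth limits the 3 collagens below the filter, which had at most 6 reads in any library.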
